A study of Mus musculus with 7 samples.

Results

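Ccrn4l and 8 genes grouped here as outputs of the circadian clock (Dbp, Tef, Hlf, Nfil3, Bhlhe40, Bhlhe41, Rora and Usp2) were measured by RNA sequencing in mouse liver at 2 ages. The members were the rows of the gene tables with these symbols, and all 9 were found among 23366 genes. Every library came from liver of C57BL/6 mice, an inbred strain, with no other treatment or allele named in the labels. The groups were 3 months of age (n = 4) and 21 months of age (n = 3), and the comparison asks which transcripts differ between young adult and old liver. The labels give no time of day, feeding state, sex or animal for a library. Whether the ages were sampled at the same point of the daily cycle was not tested. Nothing in the labels says that the libraries came from separate animals, so p-values rest on a spread that could be technical.

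In the mammalian clock, CLOCK and ARNTL (BMAL1) bind E-boxes and drive Per, Cry and Nr1d genes, whose products feed back on them. Output factors pass the rhythm on: DBP, TEF and HLF are PAR bZIP activators that bind D-boxes, and NFIL3 (E4BP4) is a repressor of the same sites. BHLHE40 and BHLHE41 (DEC1 and DEC2) repress through E-boxes, RORA activates through ROR elements that NR1D1 and NR1D2 repress, and USP2 is a rhythmic deubiquitinase. CCRN4L (nocturnin, now named Noct) belongs by sequence to the CCR4 deadenylase family, cycles in liver and is linked to lipid handling. Dbp is known for one of the deepest daily cycles in liver, so a level read at a single time depends on that time.

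The stretch before the transcription start was examined for clock motifs, because members driven through the same motif could move together. RefSeq promoters of GRCm38.p6 were found by symbol for 8 of the 9 members, with 9 starts in all. Searched on both strands in the 250 bases before each start were the E-box CACGTG, the D-box forms TTATGTAA and TTACGTAA, TAGGTCA as the core of the ROR element, and the cAMP element TGACGTCA. Of 32851 such windows, 6.02% held CACGTG, 0.819% TTATGTAA, 0.113% TTACGTAA, 2.23% TAGGTCA and 1.55% TGACGTCA. CACGTG was found before both Tef starts and before Bhlhe41, TAGGTCA on the reverse strand before Nfil3, and TGACGTCA before Hlf. The windows of Ccrn4l, Dbp, Rora and Usp2 held none of these 5 motifs. The Ccrn4l window is shown whole because this member changed most, with its 2 matches to the loose E-box form CANNTG in capitals, a form that 66.2% of windows hold and that also covers CACGTG. The other lines are 60-base windows with the matched motif in capitals. A match is a description of letters and not a bound site.
Ccrn4l (Noct), chr3:51224197-51224446, plus strand, GRCm38.p6: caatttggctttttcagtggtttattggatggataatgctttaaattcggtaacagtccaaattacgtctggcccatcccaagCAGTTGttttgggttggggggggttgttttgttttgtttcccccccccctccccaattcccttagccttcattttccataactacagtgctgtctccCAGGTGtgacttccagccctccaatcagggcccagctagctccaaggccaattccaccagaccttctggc
Tef, first start, chr15:81802519-81802578, plus strand, GRCm38.p6: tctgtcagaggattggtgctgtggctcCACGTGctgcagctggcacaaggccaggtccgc
Tef, second start, chr15:81811249-81811308, plus strand, GRCm38.p6: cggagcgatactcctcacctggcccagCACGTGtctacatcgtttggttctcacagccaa
Bhlhe41, chr6:145865541-145865600, minus strand, GRCm38.p6: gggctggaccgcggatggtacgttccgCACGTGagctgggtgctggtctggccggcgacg
Nfil3, chr13:52981040-52981099, minus strand, GRCm38.p6: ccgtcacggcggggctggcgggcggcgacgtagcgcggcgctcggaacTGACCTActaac
Hlf, chr11:90390918-90390977, minus strand, GRCm38.p6: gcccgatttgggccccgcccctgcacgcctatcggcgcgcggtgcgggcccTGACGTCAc

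Libraries held 4724687 to 11143125 expected counts, RSEM's estimate of reads per gene. The ribosomal RNA row Rn45s took 18.7% to 25.6% of them by library, and 3840574 to 8988306 counts were left without it. Levels of single genes are given as CPM, counts per 1000000 counts after TMM scaling, and 3 counts, the most that a count of 0 allows, came to 0.257 to 0.607 CPM by library. Of 11251 genes tested with edgeR, 1274 differed between ages after Benjamini-Hochberg adjustment (adjusted p under 0.05), a background of 11.3%, with 5.47% higher and 5.86% lower at 21 months. The summed level of 9 hepatocyte markers was 59666 to 73920 CPM at 3 months and 76470 to 81417 CPM at 21 months. That sum was carried by Alb (log2 fold change 0.52), named after its values were seen. At an unadjusted p under 0.05 (background 26.6%), 4 of the 9 were lower and 1 higher, and the list's median was -0.10. By edgeR's adjusted p (background 11.3%) 1 was higher and 1 lower. DESeq2 (background 10.1%) called 1 higher and 3 lower, and limma voom (background 11.3%) called 1 and 2. Summed levels of the B and plasma cell list (7 markers) were 3.08 to 4.45 against 9.07 to 43.4 CPM. Those of the neutrophil list (6 markers) were 0.343 to 1.21 against 1.48 to 3.91 CPM, and those of the bile duct list (6 markers) 32.4 to 46.9 against 29.2 to 31.8 CPM. Macrophage, T, NK and innate lymphoid, endothelial, stellate and adipocyte lists overlapped between ages, and no marker was at 0 in all libraries. Of all single genes tested, 24.2% did not overlap between ages. The part of these cells in any result below was not tested, and in whole liver fewer cells of a type and less RNA per cell cannot be told apart. The median gap between length and effective length in RSEM's output was 34.4 to 38.8 bases at 3 months. It was 35.4, 30.9 and 21.4 bases in 21-month replicates 1, 2 and 3. What set the gap was not tested.

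Ccrn4l was the member that changed. Its level was 11.3, 6.86, 10.5 and 9.74 CPM in the young replicates 1 to 4. At 21 months it was 46.9, 33.8 and 64.5 CPM in replicates 1, 2 and 3. All 3 old libraries stood above all 4 young ones, and the lowest old value was well clear of the highest young one. The mean rose from 9.61 ± 1.94 CPM (SD, n = 4) to 48.4 ± 15.4 CPM (SD, n = 3), a 5.19-fold rise (log2 fold change, 21 months minus 3 months, 2.38 ± 0.24 SE). The 95% interval of the fold was 3.60 to 7.48, and edgeR's adjusted p was 0.000541. Ranked by log2 fold change, Ccrn4l was number 24 from the top of the 11251 genes tested.

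The rise of Ccrn4l passed the threshold in each of the 18 alternative fits, where the log2 fold change lay between 1.98 and 2.59. Its lowest value came with replicate number and the effective length gap fitted together (edgeR adjusted p = 0.000655). That fit has nearly as many terms as libraries, so it estimates the spread poorly, here and wherever it is cited below. Leaving out 21-month replicate 3, the library with the smallest gap and the highest Ccrn4l, gave 2.13 (edgeR adjusted p = 0.000152). The gene model of Ccrn4l holds 1 transcript, its expected counts were whole numbers in every library, and those ran from 52 to 80 at 3 months and from 242 to 542 at 21 months.

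**Figure D1:**
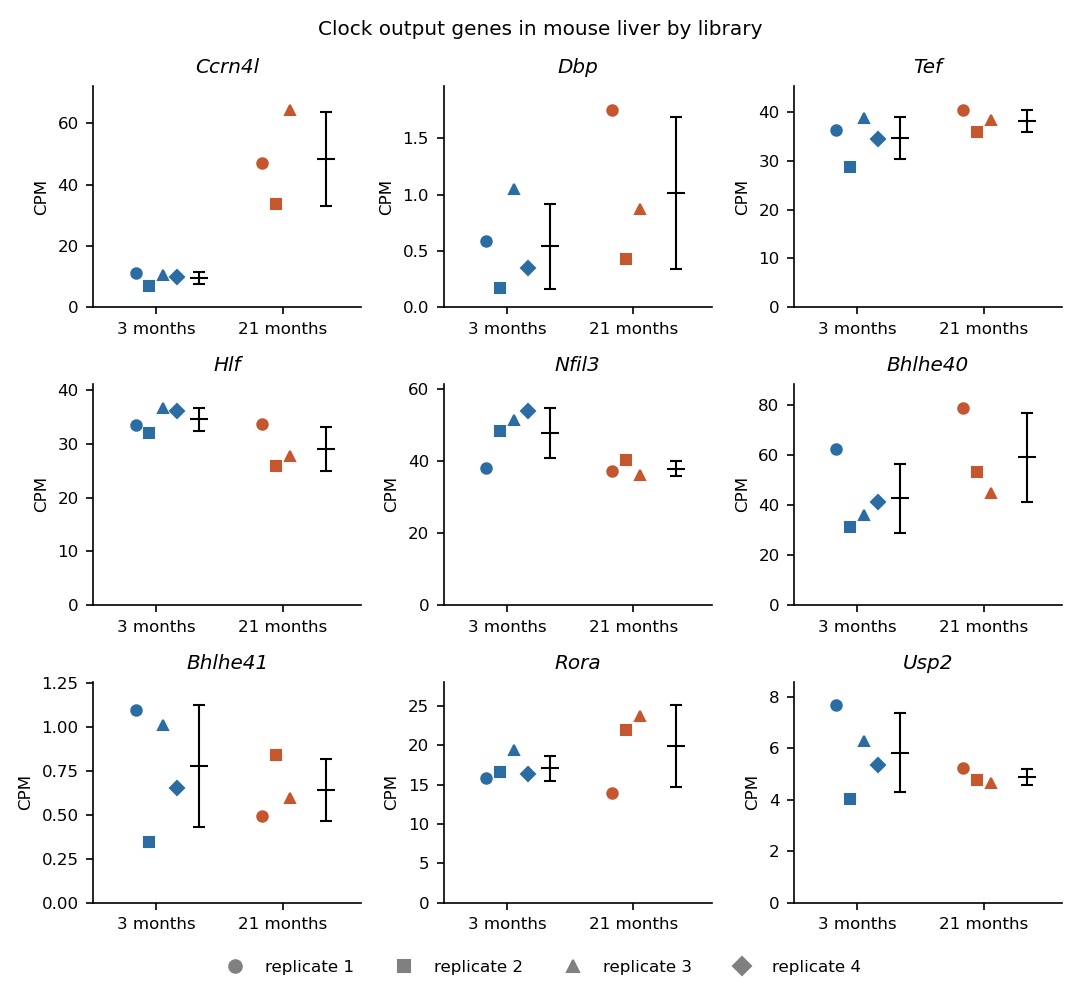
Level in CPM (linear axis from 0) of each of the 9 clock output genes by age, 1 point per library with the marker giving the replicate number, and bars giving mean ± SD (n = 4 and n = 3). Ccrn4l is the panel in which the ages do not overlap, at 6.86 to 11.3 against 33.8 to 64.5 CPM.

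Of the 7 members that passed the filter on low counts, Ccrn4l rose, 0 fell and 6 did not pass the test. That is 14.3% against the background of 11.3%, so the share of members called was close to that of all genes. At an unadjusted p under 0.05, which 26.6% of all genes reached, 1 member was higher (Ccrn4l) and 1 lower (Nfil3). DESeq2 (background 10.1%) and limma voom (background 11.3%) each called 1 higher and 0 lower. With the replicate number as a block (background 9.55%) 2 were higher, and with the effective length gap as a covariate (background 2.95%) 1 was. The median log2 fold change of the 7 was 0.16, beside 0.00 for all genes tested. Groups did not overlap for 1 of the 7, against 24.2% of all genes tested. Dbp and Bhlhe41 did not pass the filter, since their counts were low at both ages.

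**Figure D2:**
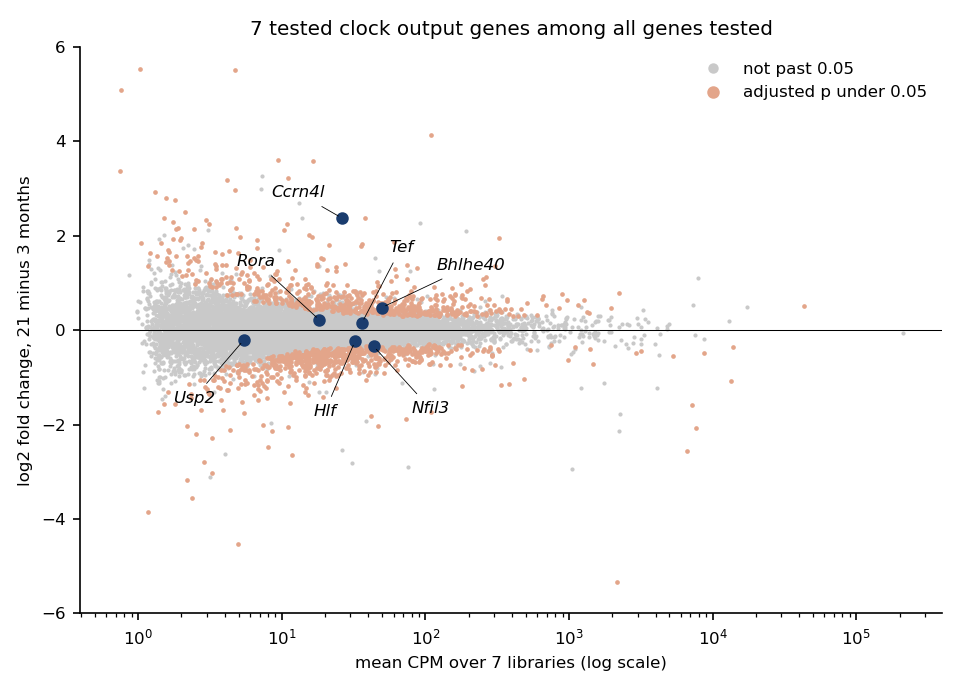
Log2 fold change (21 minus 3 months) against mean CPM over the 7 libraries (log scale) for all genes tested, with 3 genes beyond the axis limit of 6 not drawn and the 7 tested clock output genes as large points. Ccrn4l stands at 2.38, and the other 6 lie between -0.34 and 0.48.

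Among the PAR bZIP activators, Dbp was nearly silent in these libraries. Its expected counts were 3.21, 2.03, 5.18 and 2.16 in 3-month replicates 1 to 4 and 17.8, 3.07 and 7.33 in 21-month replicates 1 to 3. In CPM these are 0.586, 0.174, 1.05 and 0.351 against 1.75, 0.429 and 0.872. The ages overlapped, and 21-month replicate 1 was the highest library. Summed over libraries, 12 rounded counts at 3 months against 28 at 21 months gave a ratio of 2.56 (95% exact binomial interval 1.26 to 5.53, which covers counting error only). Of the old counts, most came from 21-month replicate 1, and without that library the ratio was 1.51 (interval 0.585 to 3.82). Without 3-month replicate 2 it was 1.81 (interval 0.851 to 4.17), and both intervals include no difference. With no filter on low counts the log2 fold change was 1.22 ± 0.61 SE (edgeR adjusted p = 0.249).

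The few Dbp reads were not all its own by the authors' counting. Dbp was the member whose counts were not whole, in 7 of 7 libraries, while the other 8 members had whole counts in every library. Dbp overlaps the sphingosine kinase gene Sphk2 in the GRCm38.p6 gene table, and the summed counts of Dbp and Sphk2 were whole within 0.02 counts in 7 of 7 libraries. Sphk2, a gene picked with its values in view, had 41.2 to 55.0 CPM in young and 58.5 to 81.7 CPM in old libraries, a 1.42-fold rise (edgeR adjusted p = 0.0178). The call of Sphk2 was lost in 6 of 18 alternatives. Reads of the pair cannot be fully told apart here, so the level of Dbp is uncertain.

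Tef was well expressed, at 36.3, 28.7, 38.8 and 34.4 CPM in 3-month replicates 1 to 4. In 21-month replicates 1 to 3 it stood at 40.4, 35.9 and 38.3 CPM. The groups overlapped, with 3-month replicate 2 lowest of the 7 libraries. The log2 fold change was 0.16 ± 0.12 SE (edgeR adjusted p = 0.437), and the 95% interval of the fold, 0.936 to 1.33, leaves out a change of the size seen for Ccrn4l. In RSEM tables a gene's length is averaged over its isoforms by their estimated abundance. For Tef, with 2 transcripts in its model, that length was 4204, 4218, 4211 and 4220 bases at 3 months and 4211, 4194 and 4198 bases at 21 months, and the ages overlapped.

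Hlf, the third PAR bZIP factor, stood at 33.6, 32.0, 36.6 and 36.2 CPM in the 3-month replicates. The 21-month values were 33.7, 25.8 and 27.8 CPM, so replicates 2 and 3 lay below every young library and replicate 1 lay among them. The log2 fold change was -0.24 ± 0.12 SE (edgeR adjusted p = 0.214), with a 95% interval of the fold of 0.711 to 1.01. Without 21-month replicate 1 it was -0.36 (edgeR adjusted p = 0.0480), past the threshold.

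Nfil3, the repressor of D-box sites, had the most abundant transcript per length among the members at 3 months. Its levels were 38.0, 48.2, 51.4 and 53.7 CPM in 3-month replicates 1 to 4. In the old libraries they were 37.1, 40.1 and 36.2 CPM, with little spread. 3-month replicate 1 sat among the old ones and the other young libraries stood above them. The log2 fold change was -0.34 ± 0.12 SE (unadjusted p = 0.0133, edgeR adjusted p = 0.0832), and the 95% interval of the fold was 0.659 to 0.945. Whether it passed turned on 1 library: without 3-month replicate 1 the log2 fold change was -0.43 (edgeR adjusted p = 0.0294). In 3 of 3 pairs with the same replicate number the old library was lower, but the labels do not state such a pairing and this was not tested. With the replicate block the log2 fold change was -0.27 (edgeR adjusted p = 0.184), and with the block and the effective length gap its sign turned, to 0.02 (edgeR adjusted p = 0.981). The block gives no weight to the unpaired 3-month replicate 4, the highest Nfil3 library. Leaving that library out of the main fit gave -0.28 (edgeR adjusted p = 0.205).

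Per length, Nfil3 stood against the summed PAR bZIP factors at a TPM ratio (transcripts per 1000000, scaled for length by the authors) of 1.30, 1.95, 1.60 and 1.85 in 3-month replicates 1 to 4. The ratio was 1.14, 1.52 and 1.26 in 21-month replicates 1 to 3. Means were 1.68 ± 0.29 (SD, n = 4) and 1.31 ± 0.20 (SD, n = 3), and the ages overlapped. Within same-numbered pairs the ratio was lower at 21 months in 3 of 3, which was not tested.

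Bhlhe40, a repressor that acts at E-boxes, varied widely within each age. Young replicates 1 to 4 had 62.6, 31.4, 36.0 and 41.1 CPM. At 21 months it was 79.0, 53.2 and 44.8 CPM in replicates 1 to 3. The ages overlapped, because 3-month replicate 1 lay above 21-month replicates 2 and 3. The log2 fold change was 0.48 ± 0.29 SE (edgeR adjusted p = 0.354), and the interval of the fold, 0.866 to 2.25, spans both directions. In 3 of 3 pairs with the same replicate number the old library was higher, and replicate 1 was the highest library of its age. The labels do not state such a pairing, and the agreement of the pairs was not tested. With the replicate number as a block, the log2 fold change was 0.47 ± 0.12 SE and passed the threshold (edgeR adjusted p = 0.0258), while the block with the effective length gap did not pass (edgeR adjusted p = 0.407).

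Bhlhe41, its close relative, was just above the floor in both ages, with 4 to 6 counts in every library. That was 1.09, 0.343, 1.01 and 0.649 CPM at 3 months and 0.493, 0.838 and 0.595 CPM at 21 months. The 19 counts of the young and 16 of the old group gave a ratio of 0.925 (95% exact binomial interval 0.445 to 1.90), so a difference was not detectable at this depth. Bhlhe40 outnumbered Bhlhe41 in TPM by 69.9-fold to 317-fold across the 7 libraries, a ratio that rests on those few Bhlhe41 counts.

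Rora, the ROR element activator, had 15.9, 16.6, 19.4 and 16.4 CPM in the young libraries, replicates 1 to 4. The old libraries were split, at 14.0 CPM in replicate 1, below every young library, and 21.9 and 23.8 CPM in replicates 2 and 3, above every young library. The log2 fold change was 0.22 ± 0.17 SE (edgeR adjusted p = 0.453, interval of the fold 0.906 to 1.49). Without 21-month replicate 1 it was 0.43 (edgeR adjusted p = 0.0381). With any other library left out it was 0.08 to 0.27 and did not pass (edgeR adjusted p = 0.407 to 0.855). With the effective length gap as a covariate the sign turned, to -0.13 (edgeR adjusted p = 0.783). The gene model used by the authors holds 1 Rora transcript, so other isoforms were not counted apart.

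Usp2, the deubiquitinase, was low at 7.66, 4.03, 6.27 and 5.36 CPM in the 3-month replicates. The old libraries stood close together within that range, at 5.22, 4.75 and 4.64 CPM. The log2 fold change was -0.21 ± 0.23 SE (edgeR adjusted p = 0.613), with a fold interval of 0.611 to 1.22. Its model holds 3 transcripts, and the averaged length was 3375, 3428, 3226 and 3417 bases at 3 months and 3292, 3311 and 3326 bases at 21 months. The old values again lay inside the young range.

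Levels of different members were compared per length, in TPM. At 3 months the order was Nfil3 (47.1 ± 8.03 TPM, SD, n = 4), Bhlhe40 (26.3 ± 7.24), Rora (20.5 ± 3.16), Tef (15.8 ± 2.17), Hlf (11.8 ± 1.02), Ccrn4l (6.04 ± 1.10), Usp2 (3.35 ± 0.864), Dbp (0.638 ± 0.476) and Bhlhe41 (0.245 ± 0.108). From Tef down to Dbp, no neighbours in that order overlapped in range, whereas the neighbours from Nfil3 to Tef did, and so did Dbp and Bhlhe41. At 21 months Ccrn4l had moved up from the sixth to the third place, at 33.3 ± 10.9 TPM (SD, n = 3). It then lay among Nfil3 (40.4 ± 3.44), Bhlhe40 (39.7 ± 10.0), Rora (26.1 ± 7.73) and Tef (19.1 ± 0.515), where each neighbouring pair overlapped. Hlf (10.7 ± 0.969), Usp2 (3.10 ± 0.0777), Dbp (1.27 ± 0.784) and Bhlhe41 (0.223 ± 0.0709) followed without overlap.

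**Figure D3:**
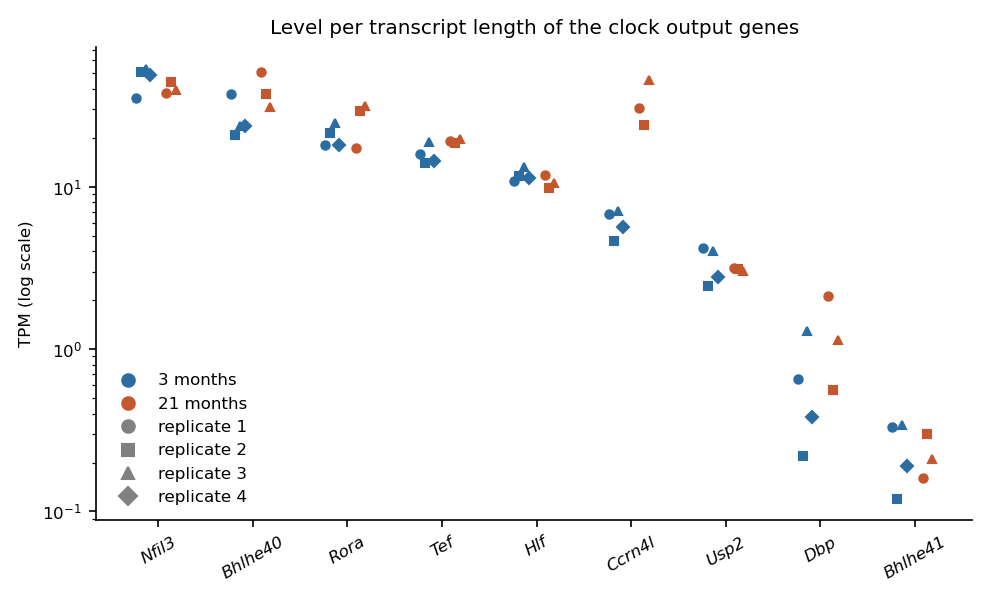
TPM (log scale) of the 9 clock output genes in each library, ordered by their mean at 3 months, with color for age and marker for replicate number. Ccrn4l goes from 4.65 to 7.05 TPM at 3 months to 24.0 to 45.3 TPM at 21 months, while Nfil3, at 35.4 to 53.5 against 37.5 to 44.2 TPM, overlaps between ages.

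The core clock that drives these outputs was read from a list of 18 genes, of which 14 were tested. At 21 months 3 of 14 were higher and 0 lower (21.4%, background 11.3%), with a median log2 fold change of 0.04. At an unadjusted p under 0.05 (background 26.6%), 4 were higher and 1 lower. DESeq2 (background 10.1%) and limma voom (background 11.3%) each called 2 higher and 0 lower. Nr1d1, which encodes a repressor at ROR elements, stood at 15.1, 14.0, 16.8 and 19.3 CPM at 3 months and at 28.2, 27.0 and 39.5 CPM at 21 months (1.95-fold, edgeR adjusted p = 0.00149). Its paralog Nr1d2 stood at 9.12, 6.09, 9.91 and 8.44 CPM against 15.4, 13.5 and 18.4 CPM (1.93-fold, edgeR adjusted p = 0.00420). For both, every old library stood above every young one.

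The other core clock gene on the list that rose was Npas2, a CLOCK paralog, at 5.11 to 9.01 against 10.3 to 13.3 CPM (1.55-fold, edgeR adjusted p = 0.0437). That call was lost in 11 of 18 alternatives (adjusted p = 0.0527 to 0.251), in which the log2 fold change was 0.51 to 1.01 against 0.63. With the effective length gap as a covariate (background 2.95%) 0 of the 14 were called. Nr1d1 then had a log2 fold change of 0.64 (adjusted p = 0.0511) and Nr1d2 one of 0.74 (adjusted p = 0.0902).

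The remaining core clock genes on the list did not pass the test. The activators Arntl and Clock had log2 fold changes of -0.20 and -0.04, and the repressors Cry1 and Cry2 -0.37 and 0.12. Arntl stood at 18.3 to 23.4 CPM at 3 months and 16.6 to 18.7 CPM at 21 months. Cry1 passed without 3-month replicate 1, at -0.46 (edgeR adjusted p = 0.0415), the library that also decided Nfil3. Per2 was at -0.31 and Per1 at -0.18, the latter with a spread from 2.75 to 11.2 CPM among the young libraries. Per3, at 0.811 to 2.55 against 2.85 to 3.15 CPM, did not overlap between ages (log2 fold change 0.93, edgeR adjusted p = 0.0906). Csnk1d, Csnk1e, Btrc and Fbxl21 had log2 fold changes from -0.05 to 0.65.

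**Figure D4:**
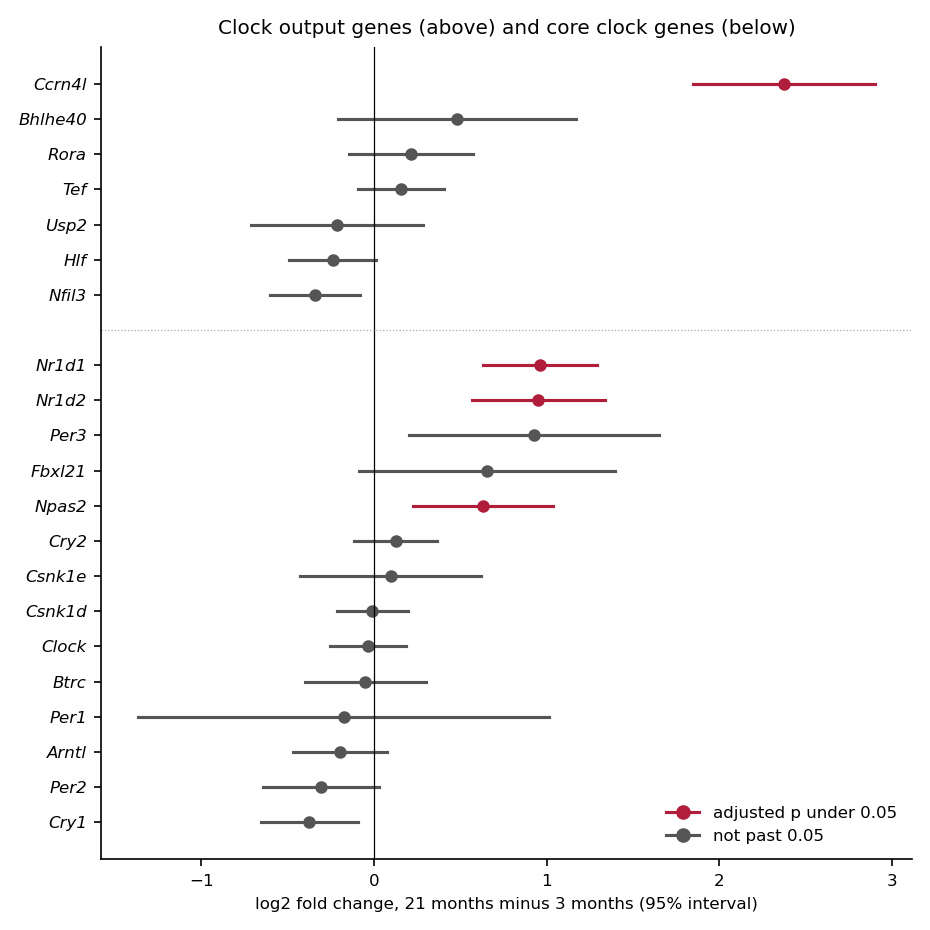
Log2 fold change (21 minus 3 months) with its 95% interval for the 7 tested clock output genes and 14 core clock genes, in red where the edgeR adjusted p is under 0.05. Ccrn4l at 2.38 lies to the right of every core clock interval, and Nr1d1 and Nr1d2 lie at 0.96 and 0.95.

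Further lists give the neighbourhood of the members' roles. Of 20 tested liver genes linked to PAR bZIP factors or D-boxes, 7 were higher and 1 lower (40.0%, background 11.3%), with a median log2 fold change of 0.54. Several are also targets of other liver receptors, and Cyp2 genes have near-identical copies that share reads. At an unadjusted p under 0.05 (background 26.6%), 10 of the 20 were higher and 2 lower. DESeq2 (background 10.1%) called 9 higher and 1 lower, and limma voom (background 11.3%) called 7 and 1. With the effective length gap as a covariate (background 2.95%) 5 were higher and 1 lower. The drug-metabolising P450 genes Cyp2c37, Cyp2c50 and Cyp2b10 rose 2.57-fold, 1.66-fold and 9.40-fold (edgeR adjusted p = 0.000438, 0.00194 and 0.000889, in that order). Cyp2a4 fell 4.02-fold (edgeR adjusted p = 0.000467). With the replicate block (background 9.55%) 8 were higher and 2 lower. The second lower gene was Alas1, which encodes the first enzyme of haem synthesis (log2 fold change -0.92, edgeR adjusted p = 0.00470), named after its values were seen. Without the block Alas1 overlapped between ages at -0.69 (edgeR adjusted p = 0.460), and the block gives no weight to the unpaired 3-month replicate 4, its lowest library at 134.7 CPM. With the block and the effective length gap, where 94 of all genes passed, 4 were higher and 0 lower. The edgeR adjusted p was then 0.315 for Alas1 and 0.0654 for Cyp2a4.

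Of 21 tested genes of deadenylation, the activity of the family that CCRN4L belongs to, 1 was higher and 2 were lower (14.3%, background 11.3%), with a median of -0.02. Tob1, an adaptor of the CCR4-NOT complex, rose 1.35-fold (edgeR adjusted p = 0.020). Pde12, a phosphodiesterase that removes poly(A) in mitochondria, fell 1.59-fold and Cnot3, a CCR4-NOT subunit, 1.61-fold (edgeR adjusted p = 0.00953 and 0.0144). Cnot6l, a CCR4-NOT deadenylase, had a log2 fold change of 0.48 (edgeR adjusted p = 0.103). With the effective length gap as a covariate (background 2.95%) 0 were higher and 1 lower, while the log2 fold changes of Tob1 (0.45, adjusted p = 0.117) and Cnot3 (-0.79, adjusted p = 0.0770) were no smaller than without it. Tob1 lost its call in 6 of 18 alternatives, and limma on log2(TPM + 1) called neither Pde12 (adjusted p = 0.0702) nor Cnot3 (adjusted p = 0.111).

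The feeding and hormone state of the animals is not given in the labels, and genes that respond to it were counted. Of 18 tested fasting and feeding responsive genes, 4 were higher and 0 lower (22.2%, background 11.3%), with a median log2 fold change of 0.29. At an unadjusted p under 0.05 (background 26.6%), 8 were higher and 0 lower. DESeq2 (background 10.1%) and limma voom (background 11.3%) called 6 and 4 higher and 0 lower. The 4 were G6pc of glucose release (1.48-fold), the lipogenic regulator Srebf1 (log2 fold change 0.58), the fatty acid synthase Fasn (1.45-fold) and the fasting coactivator Ppargc1a (1.80-fold). Genes of the fed and of the fasted state were thus both among them. Their calls ended with the effective length gap as a covariate (0 of 18, background 2.95%), at log2 fold changes of 0.54 for G6pc, 0.55 for Srebf1, 0.57 for Fasn and 0.85 for Ppargc1a (adjusted p = 0.0770 to 0.177). Over all alternatives, the call was lost in 2 of 18 for G6pc and for Srebf1. Fasn lost it in 6 of 18 and Ppargc1a in 9 of 17.

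Of 13 tested glucocorticoid-induced genes, 0 were higher and 0 lower by edgeR, DESeq2 and limma voom alike (backgrounds 11.3%, 10.1% and 11.3%), with a median log2 fold change of 0.14. At an unadjusted p under 0.05 (background 26.6%), 1 was higher and 1 lower. The lowest adjusted p values were 0.118 for Zbtb16, 0.144 for Pdk4, 0.207 for Sgk1 and 0.290 for Tat. Zbtb16 passed without 21-month replicate 2, at a log2 fold change of -0.71 (edgeR adjusted p = 0.046). In that fit 1 gene of the list was also higher. With the replicate block (background 9.55%) 1 was higher and 0 lower. The higher gene was Lcn2, an acute phase gene (log2 fold change 2.24, edgeR adjusted p = 0.00164), named after its value was seen. Without the block its log2 fold change was 0.95 ± 0.83 SE (edgeR adjusted p = 0.536), and 0.52 to 2.30 with 1 library left out. The top of that range, without 3-month replicate 4, passed the threshold (edgeR adjusted p = 0.0124). The block gives no weight to 3-month replicate 4, the highest Lcn2 library at 6.65 CPM against 0.405 to 1.64 CPM in the other young ones. With the block and the effective length gap Lcn2 was not called (adjusted p = 0.218).

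The genes whose profile over the 7 libraries was most like that of Ccrn4l were found by the root mean square difference of centred log2 CPM. They were Lrtm1 (0.236 on the log2 scale), Sema5b (0.328) and Dmrta1 (0.328). Since they were chosen for a profile that differs by age, their age differences follow from the choice and are given as a description, with no test. Lrtm1 stood at 5.29, 3.00, 3.64 and 5.36 CPM at 3 months and 23.3, 14.1 and 22.0 CPM at 21 months (4.74-fold). Sema5b, a semaphorin, stood at 1.21 to 3.24 against 6.57 to 9.95 CPM (3.90-fold). Dmrta1 was near the floor at 3 months, at 0.259 to 0.730 against 1.93 to 4.34 CPM, so its fold of 6.97 is uncertain.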

How the data were processed

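Liver RNA was sequenced in 7 libraries, 4 at 3 months and 3 at 21 months. Per the labels' protocols, mRNA was enriched from total RNA, fragmented and made into strand-specific libraries amplified by PCR. The submitters' processing notes name TopHat, RSEM, edgeR and mm9, with roles and versions not given in the sources used here. Per the file headers, the authors deposited expected counts, TPM, FPKM (not used here) and gene lengths in bases for each library. Whole numbers made up 84.4% to 88.1% of the expected counts by library.

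Expected counts were rounded to whole numbers, filtered with filterByExpr (minimum count 10, minimum total 15), scaled by TMM and tested with edgeR 4.0.16's robust quasi-likelihood test in R 4.3.3, 21 against 3 months. P-values were adjusted by Benjamini-Hochberg over all 11251 genes tested, with a threshold of 0.05. Standard errors and 95% intervals come from the test's F value and degrees of freedom. The fit was tested on simulated data. DESeq2 1.42.0, limma 3.58.1 and other settings served as alternatives, and matplotlib 3.10.9 drew the figures in Python 3.11.15. Depth was 4724687 to 11143125 expected counts a library, with Rn45s included. Reads copied by PCR are not independent molecules, so count intervals cover counting error alone.

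The labels number the replicates alike at both ages. Deviations from the age means correlated at 0.10, 0.17 and 0.10 for libraries numbered 1, 2 and 3 (11251 genes), each just over or above the minimum of 0.1 used. Pairs by number thus rest on weak correlations in the data, and the labels do not state a shared source. The main fit left the libraries unpaired, and the replicate block was an alternative. The 3-month replicate 4 and 21-month replicate 1 correlated at 0.16 without sharing a number.

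Members, lists and tests were chosen with earlier results of these data known. Named were the 9 members, the core clock genes tested, the 4 smallest adjusted p of each other list and the 3 genes most like a changed member. Others are marked as named after their values were seen. Some listed genes are not reported here and were taken out of the list counts.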

Additional observations from a re-analysis of the deposited data

Results flagged for a closer look

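Gap checks within the 3-month group of 4 libraries marked 2 of 45 genes as having 1 library apart from the rest, where chance gives about 5%. Csnk1d stood at 59.7 CPM in 3-month replicate 1, below the other young libraries at 61.9 to 62.1 CPM. Cyp2c50 stood at 553 CPM in 3-month replicate 4, above the others at 498 to 504 CPM. No clock output gene was marked.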

How the results depend on the processing

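Against 1274 genes past the threshold, the count was 716 with limma on log2(TPM + 1), a scale that moves the median of all genes to 0.10, 332 with the effective length gap as a covariate, 94 with that gap and the replicate block (an alternative added after the data were seen) and 580 to 1642 with 1 library left out. The replicate block alone gave 1075. The fit with both gap and block has nearly as many terms as libraries, so lost calls and turned signs there are weak evidence. The gap was smaller in 21-month replicates 2 and 3 than in every 3-month library, so it partly follows age. Among the clock output genes 1 passed, against 2 with the replicate block and 1 to 3 with 1 library left out. Ccrn4l kept its call throughout. With the gap and the block together, signs turned for Hlf (0.0126), Nfil3 (0.0232), Rora (-0.1051), Per1 (0.7332), Cry2 (-0.0354), Csnk1e (-0.3954) and Tat (-0.0458). With the gap alone they turned for Rora (-0.1286), Per1 (0.015) and Btrc (0.155). TPM turned Clock (0.0778), Csnk1d (0.113) and Btrc (0.0584). Per1 also turned with limma voom (0.0008) and the block (0.2864). Csnk1d turned with RLE scaling (0.0001), library-size scaling (0.0204) and the Rn45s and Lars2 rows removed (0.0096). With 1 library left out, log2 fold changes ran from -0.1077 to 0.0432 for Clock, -0.4921 to 0.292 for Per1, -0.06 to 0.0501 for Csnk1d, -0.0127 to 0.2843 for Csnk1e and -0.1661 to 0.075 for Btrc. The cause was not tested. Ratios of summed counts with 1 library left out, also added after the data were seen, ran from 1.51 to 3.62 for Dbp and 0.688 to 1.09 for Bhlhe41. Depth limits Dbp and Bhlhe41, which could not be tested with the filter on low counts.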
